A study of Mus musculus with 23 samples.

Results

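The immunity-related GTPases are a family of interferon-induced proteins, and 7 of the 48397 gene symbols in the count table were taken as its members by name: Irgm1, Irgm2, Igtp, Iigp1, Tgtp1, Tgtp2 and Ifi47. They were followed in 23 polyA RNA libraries made from breast tumours that Met1-iRFP cells had formed in FVB mice. Met1 is a mammary carcinoma line of mouse origin, and its near-infrared label, iRFP, allows cancer cells to be sorted from the other cells of a tumour. The 4 groups were cancer cells (iRFP+) of exercised mice (7 libraries), cancer cells of sedentary mice (8 libraries), cells of the tumour microenvironment (TME, iRFP-) of exercised mice (4 libraries) and TME cells of sedentary mice (4 libraries). All groups share the tumour line and the strain. The labels give neither the age and sex of the mice nor the form of exercise. Nothing in them ties a library to its own mouse, and the p-values therefore reflect variation among libraries, which may be partly technical.

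Immunity-related GTPases act in cell-autonomous defence, the killing of pathogens inside an infected mouse cell. Interferon-gamma binds its receptor, which signals through the kinases Jak1 and Jak2, and Irf1 is among the factors that switch the genes on. The regulators Irgm1, Irgm2 and Igtp (also named Irgm3) sit on the cell's own membranes and hold the effectors inactive there. The effectors Iigp1 (Irga6), Tgtp1 and its near-identical copy Tgtp2 (Irgb6), and Ifi47 (Irgd) load onto the vacuoles of parasites such as Toxoplasma gondii. Proteins of the LC3 and GABARAP conjugation system are needed for that loading.

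The promoters of the members are shown first because interferon-gamma acts through 2 short sequences, the gamma-activated site (GAS) and the interferon-stimulated response element (ISRE), which interferon regulatory factors bind. RefSeq promoter windows of GRCm38.p6, from 250 bases before to 50 after the start, were found for 6 members. They were searched on both strands for a GAS-like motif, TTCNNNGAA, and an ISRE-like motif, GAAA followed by any 2 bases and again GAAA. The 80 bases around the matches follow for the 5 members that held any, on the gene's strand, with matched bases in capitals.
Irgm1: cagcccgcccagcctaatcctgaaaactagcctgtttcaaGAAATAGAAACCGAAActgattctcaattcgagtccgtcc
Irgm2: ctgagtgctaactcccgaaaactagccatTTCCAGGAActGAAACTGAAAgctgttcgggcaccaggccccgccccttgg
Igtp: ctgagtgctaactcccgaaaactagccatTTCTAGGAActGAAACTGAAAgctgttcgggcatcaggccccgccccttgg
Tgtp1: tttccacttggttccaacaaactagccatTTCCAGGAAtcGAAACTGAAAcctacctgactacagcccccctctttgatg
Tgtp2: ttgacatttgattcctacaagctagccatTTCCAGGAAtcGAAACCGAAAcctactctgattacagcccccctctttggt

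These stretches are chr11:48871411-48871490 (minus strand) for Irgm1, chr11:58214873-58214952 (plus) for Irgm2, chr11:58199482-58199561 (plus) for Igtp, chr11:48992284-48992363 (minus) for Tgtp1 and chr11:49064243-49064322 (minus) for Tgtp2. Irgm2, Igtp, Tgtp1 and Tgtp2 each held a GAS-like motif, then 2 bases, then an ISRE-like motif. Irgm1 held 2 overlapping ISRE-like motifs and no match to the GAS-like letters. The window of Ifi47 (chr11:49076337-49076636) held neither, and it covers the outermost of 5 annotated starts, while the other 4 lie between 49086700 and 49088264. The 80 bases of Irgm2 and Igtp were identical at 78 positions, and those of Tgtp1 and Tgtp2 at 56. Of all 32851 promoter windows, 8.3% held the GAS-like motif, 3.44% the ISRE-like motif and 0.454% both. The arrangement with 2 bases between them was noticed after the sequences had been read, and it was found in 5 windows (0.0152%), those of the 4 members and of Gm12185, another gene of the family. The annotated start of Gm12185, chr11:48992226 on the minus strand, lies next to a start of Tgtp1 (48992258). These 2 windows may therefore hold the same stretch, which was not checked. A match describes letters, not a bound site.

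The 7 genes lie in 3 places of the GRCm38 build, in the GENCODE M21 annotation. Irgm1 (chr11:48861968-48871683, minus strand), Tgtp1 (chr11:48985327-48994172, minus strand), Tgtp2 (chr11:49057194-49064206, minus strand) and Ifi47 (chr11:49076587-49096974, plus strand) form a cluster on chromosome 11. Igtp (chr11:58199556-58207591, plus strand) and Irgm2 (chr11:58199618-58222782, plus strand) overlap further along the same chromosome and share 162 exonic bases. Iigp1 (chr18:60376027-60392634, plus strand) is the only member on chromosome 18, where Gm4951, Gm4841 and F830016B08Rik, other genes of the family, lie nearby. All 7 are protein-coding genes.

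Total counts were 20073700 to 25526059 in exercised and 15924340 to 25563245 in sedentary cancer libraries, and 22682216 to 37388479 in exercised and 16307545 to 35958441 in sedentary TME libraries. Every member had reads in every library, from 38 reads of Tgtp2 in sedentary TME library 4 to 22841 of Iigp1 in sedentary cancer library 10, and all 7 passed the filter on low counts in each comparison. The mitochondrial share was 42.2% in sedentary TME library 4 and 14.5% in sedentary TME library 6, against 1.86% to 8.63% elsewhere. The summed level of 8 pan-leukocyte markers was 30.6 to 89.0 CPM (counts scaled by library size and TMM factors) in exercised cancer libraries and 16.4 to 45.4 in sedentary ones, against 286.962 to 1708.26 in exercised TME libraries and 413.692 to 561.77 in sedentary ones. The sum of epithelial markers did not set the sorts apart, at 275.187 to 538.438 CPM in cancer and 228.29 to 522.749 CPM in TME libraries. That sum is mostly Wfdc2 and Krt18. Cdh1 averaged 0.46 CPM in exercised and 0.56 in sedentary cancer libraries, against 4.28 and 2.90 in TME libraries, in the same order. Of 4 epithelial markers tested between the sorts, 3 were lower and 1 higher in cancer cells by estimate. In bulk RNA of a sort, fewer cells of a type and less RNA per cell cannot be told apart.

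Reads of the Tgtp pair cannot be assigned with confidence. Of the 50-base stretches of its transcripts, 81.2% of Tgtp1 and 86.6% of Tgtp2 also occur in another gene, nearly all in the other copy. The share was 11.8% for Igtp, 7.83% for Irgm2, 4.81% for Ifi47, 1.69% for Iigp1 and 0.379% for Irgm1. The sum of Tgtp1 and Tgtp2 is therefore given beside their single values. Reads in the 223 exonic bases that Tgtp1 shares with Gm12185 on the same strand are ambiguous too. So are those in the 217 that Ifi47 shares with Olfr56 on its own strand and with Gm12188 on the opposite one, where the strand setting, which is not stated, would matter.

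Iigp1 was the most abundant member in all 4 groups, both in counts and per length. Per kilobase of exon it averaged 103.846 ± 26.9 CPM in exercised cancer cells (SD, n = 7), 84.8 ± 40.7 in sedentary cancer cells (n = 8), 90.2 ± 13.7 in TME cells of exercised mice (n = 4) and 54.3 ± 13.3 in those of sedentary mice (n = 4). Igtp followed at 39.8 to 51.0 CPM per kb over the group means, then Irgm1 at 23.03 to 32.2, Irgm2 at 14.4 to 20.1 and Ifi47 at 9.67 to 24.3. Tgtp1 and Tgtp2 were lowest, at 1.34 to 2.99 CPM per kb, but how reads that match both copies were counted is not stated, and if they were dropped these levels and their sum would be too low. The order of the group means was the same in the 4 groups, except that in exercised TME cells Ifi47 (24.3 ± 10.9) stood above Irgm2 (17.8 ± 2.31) and Tgtp2 (2.99 ± 0.747) above Tgtp1 (2.66 ± 1.10). Neither exception exceeds the spread between libraries.

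**Figure D1:**
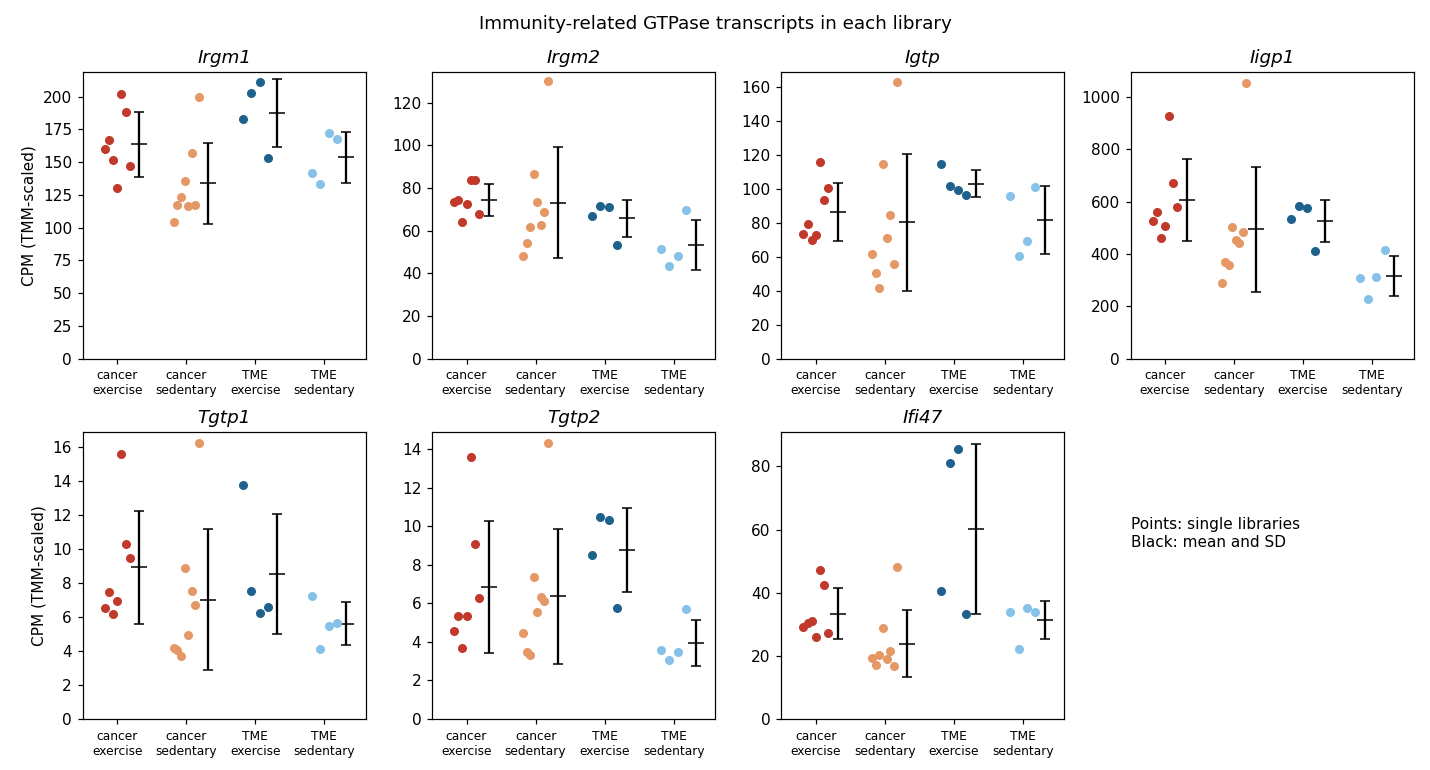
TMM-scaled CPM of the 7 members (y axes, one panel per gene) in each library of the 4 groups (x axes). Points are libraries, and black marks give the mean and SD; the highest point of the sedentary cancer group is library 10 in every panel, with 1053.79 CPM of Iigp1.

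In TME cells the point estimate of all 7 members was above 0 under exercise, but no member passed the threshold. The 4 effectors stood between 0.60 and 1.13 log2, and the 3 regulators between 0.27 and 0.32. This separation was noticed in the data, was not tested and did not hold in every fit. Without exercised library 7 Tgtp1 stood at 0.27, and with exercised libraries 8 and 9 both left out Ifi47 (0.25) stood below Igtp (0.38). By edgeR's quasi-likelihood test 0 of the 7 members and 0% of 16273 genes had an adjusted p under 0.05. At an unadjusted p under 0.05, 3 members were higher, Tgtp2, Iigp1 and Ifi47, against 4.93% of all genes higher. This count was 5 without exercised library 10, sedentary library 4 or sedentary library 10, and 6 without a filter on low counts. It was 5 with pan-leukocyte markers as a covariate and 0 with the replicate number as a block. Only numbers 9 and 10 occur in both TME groups, so the exercise estimate of that block rests on 2 same-numbered pairs. No label states such a pairing. The median of the members was 0.60 log2, 0.28 without exercised library 7, 0.38 with exercised libraries 8 and 9 both left out and 0.21 with that block. The median of all genes was 0.01, and 51.3% of all genes were above 0.

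Tgtp2 had the largest estimate. It had 8.51, 10.5, 10.3 and 5.77 CPM in exercised TME libraries 7, 8, 9 and 10, against 3.56, 3.05, 3.47 and 5.72 CPM in sedentary TME libraries 4, 6, 9 and 10. The groups did not overlap, although exercised library 10 and sedentary library 10 were almost level, and 1.96% of all genes were higher without overlap. The change was 1.13 ± 0.28 log2 (edgeR adjusted p = 0.586, unadjusted 0.00177). DESeq2 called it, at adjusted p = 0.0492, and called 41 genes in all. Over the other alternatives its adjusted p lay between 0.153 and 0.9999.

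Tgtp1, the other copy, behaved less evenly. It had 13.7, 7.53, 6.26 and 6.57 CPM in the exercised libraries, in the same order, against 7.21, 4.10, 5.47 and 5.63 CPM in the sedentary ones. Library 7 stood far above the other exercised libraries, and the groups overlapped. The change was 0.60 ± 0.30 log2 (adjusted p = 0.590), and 0.27 without exercised library 7. Since the copies share most of their sequence, their sum is the safer measure. It was 22.2, 18.03, 16.6 and 12.3 CPM in exercised libraries, against 10.8, 7.15, 8.93 and 11.4 CPM in sedentary ones, without overlap, and its change was 0.84 log2 (adjusted p = 0.586, unadjusted 0.00243).

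Iigp1, an effector that coats parasite vacuoles early, had 531.676, 583.856, 574.58 and 410.852 CPM in exercised TME libraries, against 308.125, 227.882, 312.539 and 416.375 CPM in sedentary ones. Exercised library 10 lay just below sedentary library 10, and the other 3 exercised libraries lay above every sedentary one. The change was 0.71 ± 0.18 log2 (adjusted p = 0.586, unadjusted 0.00196). Ifi47 had 40.5, 81.2, 85.5 and 33.4 CPM in exercised libraries, against 33.9, 22.3, 35.2 and 33.8 CPM in sedentary ones, a change of 0.92 ± 0.31 log2 (adjusted p = 0.586, unadjusted 0.0139). Exercised libraries 8 and 9 alone were far above the sedentary range, and library 10 was within it.

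The estimates of the regulators were smaller. Irgm1, which also guards lysosomes and mitochondria, had 182.726, 202.452, 211.414 and 152.833 CPM in exercised libraries, against 141.47, 133.219, 172.444 and 167.99 CPM in sedentary ones. Exercised library 10 lay within the sedentary range (0.27 ± 0.13 log2, adjusted p = 0.589). Irgm2 had 66.8, 71.6, 71.3 and 53.5 CPM, against 51.7, 43.4, 48.2 and 69.9 CPM, with the groups overlapping through both libraries 10 (0.29 ± 0.16, adjusted p = 0.600). Igtp had 114.954, 101.938, 99.5 and 96.3 CPM, against 96.0, 60.6, 69.4 and 100.964 CPM (0.32 ± 0.16, adjusted p = 0.592). The lowest exercised library of Igtp was level with the second highest sedentary one.

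Under exercise, leukocyte markers of TME cells were also higher in point estimate, and endothelial markers were lower. Of 8 pan-leukocyte markers 8 were above 0 in exercised TME cells (median 1.07 log2), as were 8 of 8 macrophage markers (1.30) and 7 of 7 tested T and NK cell markers (1.05), with 0 past the threshold. Of 6 endothelial markers 6 were below 0 (-1.05), with sums of 30.5 to 81.2 CPM in exercised TME libraries. Sedentary TME library 4, with a mitochondrial share of 42.2%, had a sum of 306.72 CPM. Sedentary TME libraries 6, 9 and 10 had 78.7, 65.9 and 59.0 CPM, within the exercised range. The pan-leukocyte sum was 1662.95 and 1708.26 CPM in exercised libraries 8 and 9, the pair with the most Ifi47, but 286.962 and 440.176 in exercised libraries 7 and 10. The macrophage sum was 563.426 to 3177.28 CPM in exercised and 672.161 to 854.208 in sedentary TME libraries. T and NK cell markers summed to 4.38 to 57.0 CPM in exercised and 6.26 to 21.2 in sedentary TME libraries, and the NK receptor gene Ncr1 was at 0 in 1 of 4 exercised and 2 of 4 sedentary ones. Without exercised libraries 8 and 9, an alternative added after the data were seen, Ifi47 stood at 0.25, Irgm1 at 0.13 and Irgm2 at 0.18 log2. Tgtp2 stood at 0.86, Tgtp1 at 0.88, Iigp1 at 0.58 and Igtp at 0.38. With leukocyte markers as a covariate Ifi47 stood at 0.50, Iigp1 at 0.66 and Tgtp2 at 1.004.

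Ifng, which encodes the inducing cytokine, had 2, 83, 59 and 0 reads in exercised TME libraries 7, 8, 9 and 10, against 0, 5, 30 and 14 reads in sedentary TME libraries 4, 6, 9 and 10. Exercised library 7, with 2 reads of Ifng, had the most Tgtp1 and Igtp of its group. Irgm1, Irgm2, Iigp1, Tgtp2 and Ifi47 were highest in exercised libraries 8 and 9, with 83 and 59 reads. Exercised library 10, with 0 reads, was the lowest of its group for every member but Tgtp1. Among sedentary TME libraries the order was mixed. Library 9, with 30 reads of Ifng, had the most Irgm1 and Ifi47 of its group. Library 10, with 14, had the most Irgm2, Igtp, Iigp1 and Tgtp2, and library 4, with 0, the most Tgtp1. A link was not tested. A count of 0 allows up to 0.133 CPM in exercised library 10 and 0.281 in sedentary library 4, which covers counting error only. The change of Ifng was 1.28 ± 1.22 log2 (adjusted p = 0.756).

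**Figure D2:**
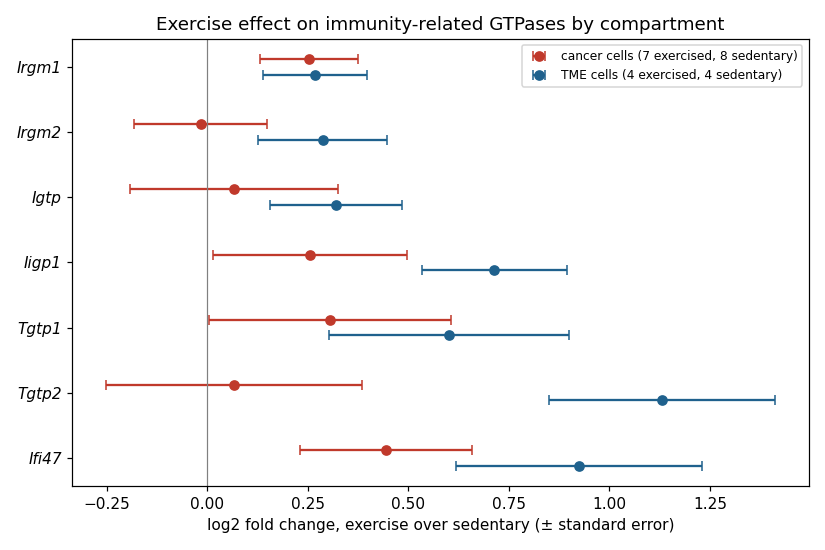
Log2 fold change of each member, exercise over sedentary, with its standard error (x axis), in cancer cells (red) and TME cells (blue). The 7 TME estimates lie between 0.27 and 1.13, and the 7 cancer estimates between -0.02 and 0.44; none passed the threshold.

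In cancer cells no member was called under exercise, and the largest estimate was that of Ifi47. By edgeR 0 of 7 members and 0% of 15096 genes had an adjusted p under 0.05, and 0 members had an unadjusted p under 0.05, against 5.92% of all genes higher and 6.67% lower. The median of the members was 0.25 log2, with 6 of 7 above 0, against a median of -0.01 and 47.4% above 0 over all genes. Ifi47 had a lowest, median and highest level of 26.1, 30.3 and 47.3 CPM in 7 exercised libraries, against 16.8, 19.8 and 48.3 CPM in 8 sedentary ones. All 7 exercised libraries lay above the sedentary mean of 23.9 CPM, and the single sedentary library above the exercised range was library 10. The change was 0.44 ± 0.21 log2 (adjusted p = 0.409).

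Irgm1 had 130.129, 159.721 and 202.294 CPM (lowest, median and highest) in exercised cancer libraries, against 104.498, 120.302 and 199.354 CPM in sedentary ones, so the ranges overlapped widely (0.25 ± 0.12 log2, adjusted p = 0.397). Iigp1 had 461.56, 559.816 and 927.238 CPM, against 290.178, 446.977 and 1053.79 CPM (0.26 ± 0.24, adjusted p = 0.713). For both, 6 of 7 exercised libraries were above the sedentary mean. Igtp had 69.8, 79.2 and 115.805 CPM, against 41.8, 66.4 and 162.768 CPM (0.07 ± 0.26). Irgm2 had 64.0, 73.6 and 84.0 CPM, against 48.3, 65.7 and 130.057 CPM (-0.02 ± 0.16). The sedentary range of both enclosed the exercised range. The Tgtp pair summed had 9.84 to 29.2 CPM, against 6.999 to 30.5 CPM (0.20 log2, adjusted p = 0.845). Tgtp1 stood at 0.31 ± 0.30 and Tgtp2 at 0.07 ± 0.32.

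These estimates turn on sedentary cancer library 10. It was the highest of the 8 sedentary libraries for each of the 7 members, with 1053.79 CPM of Iigp1 against 501.546 in the next, and 162.768 CPM of Igtp against 114.755. Without it the median of the members was 0.36 log2 and 7 of 7 were above 0. Then Ifi47 stood at 0.67, Tgtp1 at 0.60, Iigp1 at 0.51 and Irgm1 at 0.36, the 4 members with an unadjusted p under 0.05, still with 0 members and 0% of genes called. Without exercised library 7, the highest of its group for the 4 effectors, Igtp and Irgm1, the median of the members was 0.12. Sedentary library 10 held 0 reads of Ifng, which allows up to 0.138 CPM, and its pan-leukocyte sum of 32.2 CPM lay within the range of its group. In exercised cancer cells 8 of 8 pan-leukocyte markers were above 0 (median 0.57 log2), as were 7 of 8 macrophage markers (0.56), with 0 past the threshold. The macrophage sum was 51.3 to 131.679 CPM in exercised and 31.9 to 58.5 CPM in sedentary cancer libraries. With leukocyte markers as a covariate the median of the members was 0.16 log2, and 4 of 7 were above 0.

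The exercise effects of the compartments were not shown to differ. In the fit of all 23 libraries edgeR called 0 of 7 members and 0% of 17503 genes. Tgtp2 had the largest difference, -1.05 ± 0.49 log2, cancer effect minus TME effect (adjusted p = 0.646, unadjusted 0.0433), and 4.18% of all genes were lower at that threshold. The sum of Tgtp1 and Tgtp2, which share most of their sequence, stood at -0.63 ± 0.48 (adjusted p = 0.80, unadjusted 0.201). Iigp1 stood at -0.44 ± 0.37 and Ifi47 at -0.46 ± 0.40, and the other 4 lay between -0.28 and 0.01. The difference is built from the TME and cancer effects given above, whose libraries it shares.

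Between the sorts 2 of the 7 members passed the threshold, against 52.6% of all genes. Irgm2 was the 1 member higher in cancer cells (27.3% of 17503 genes), and Ifi47 the 1 member lower (25.3%). Ifi47 had a lowest, median and highest level of 26.1, 30.3 and 47.3 CPM in exercised cancer libraries, against 33.4, 60.9 and 85.5 CPM in exercised TME libraries. In sedentary libraries it was 16.8, 19.8 and 48.3 CPM in cancer cells, against 22.3, 33.8 and 35.2 CPM in TME cells. Over both treatments its change, cancer over TME, was -0.62 ± 0.20 log2 (edgeR adjusted p = 0.0115). It was called within exercised libraries (-0.85 ± 0.28, adjusted p = 0.0200, where 17.3% of genes were lower) and not within sedentary ones (-0.39 ± 0.28, adjusted p = 0.289, 19.8% lower). Without exercised TME libraries 8 and 9, the pair with high leukocyte markers, it was not called (-0.30, adjusted p = 0.223). Nor was it called with the replicate number within a treatment as a block, a pairing that no label states.

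Irgm2 averaged 74.3 ± 7.41 CPM in exercised cancer cells and 65.8 ± 8.53 in exercised TME cells, and 73.2 ± 25.8 in sedentary cancer cells and 53.3 ± 11.6 in sedentary TME cells. Its change, cancer over TME, was 0.32 ± 0.13 log2, just past the threshold (edgeR adjusted p = 0.0478). The call was lost in 24 of 34 alternatives. Among these were the fits without exercised cancer library 1, 2, 5, 7 or 8, without sedentary cancer library 5, 6 or 9, without exercised TME library 7, 8, 9 or 10 and without sedentary TME library 4, 6 or 9, with values of 0.22 to 0.32 log2. It was lost within exercised libraries (0.17, adjusted p = 0.511, with 19.5% of genes higher) and within sedentary ones (0.46, adjusted p = 0.0527, 21% higher). With RLE in place of TMM factors, a filter at a mean CPM of 1 or limma voom it was lost too.

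The other members missed the threshold between the sorts. Iigp1 stood at 0.42 ± 0.19 log2 (adjusted p = 0.0644) and was called without sedentary cancer library 2 (0.46, adjusted p = 0.0337). It was also called with the replicate number within a treatment as a block (0.65). Irgm1 stood at -0.20 ± 0.10 (adjusted p = 0.0961) and was called lower in 8 of 34 alternatives. Among these were RLE in place of TMM factors, a filter at a mean CPM of 1 and limma voom, each on all libraries. The call also came without sedentary cancer library 10 (-0.25), exercised TME library 10 (-0.29), sedentary TME library 4 (-0.28) or sedentary TME library 6 (-0.28). Igtp stood at -0.14 ± 0.19, Tgtp1 at 0.20 ± 0.24 and Tgtp2 at 0.16 ± 0.25, and Tgtp2 turned to -0.36 within exercised libraries. A p over the threshold does not show that levels were equal. In the same comparison the median of the 8 pan-leukocyte markers was -4.29 log2, and 8 passed the threshold as lower.

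**Figure D3:**
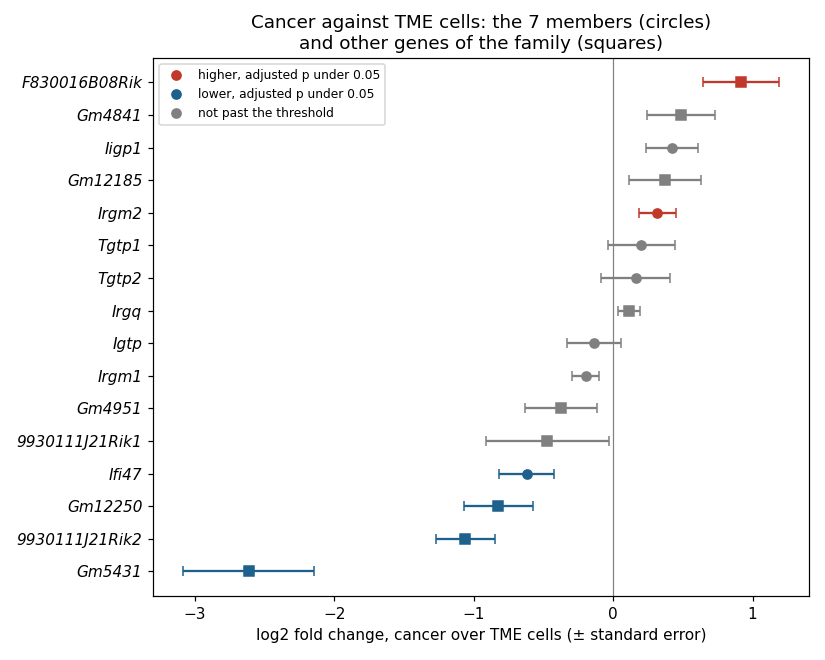
Log2 fold change of cancer over TME cells with its standard error (x axis) for the 7 members (circles) and the 9 other tested genes of the family (squares), ordered by value (y axis). The values run from -2.62 (Gm5431) to 0.92 (F830016B08Rik); colours mark genes past the threshold.

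Within each treatment the shares of Iigp1 and Ifi47 in the family did not overlap between the sorts, and those of the other 5 members did. As a share of the summed CPM per kb of the 7 members, Iigp1 took 45.8% to 52.6% in exercised cancer libraries and 39.98% to 41.3% in exercised TME libraries, and 40.8% to 51.8% in sedentary cancer libraries and 33.9% to 38.3% in sedentary TME libraries. The sorts did not overlap within either treatment. Across treatments they did, since the lowest sedentary cancer library (40.8%) lay below the highest exercised TME library (41.3%). Within TME cells, exercised libraries (40.7 ± 0.596%, SD, n = 4) did not overlap sedentary ones (35.6 ± 2.09%, n = 4). Ifi47 took 5.27% to 7.29% in exercised cancer and 7.40% to 14.2% in exercised TME libraries, and 4.24% to 6.41% in sedentary cancer and 7.32% to 9.62% in sedentary TME libraries, again without overlap. Igtp, for example, took 18.9% to 23.8% in exercised cancer and 20.2% to 26.98% in exercised TME libraries. Iigp1 was not alone in separating exercised from sedentary TME libraries. Irgm1 took 14.2% to 14.9% in exercised and 15.5% to 20.1% in sedentary ones, and Irgm2 7.94% to 8.21% and 8.84% to 10.2%. Tgtp2 took 1.11% to 1.47% and 0.777% to 1.04%, while the shares of Igtp, Tgtp1 and Ifi47 overlapped. Shares sum to a fixed total, so a larger share of 1 member lowers the others. Shares depend on how reads of the Tgtp pair were counted, were not compared with other genes and are given with no test.

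**Figure D4:**
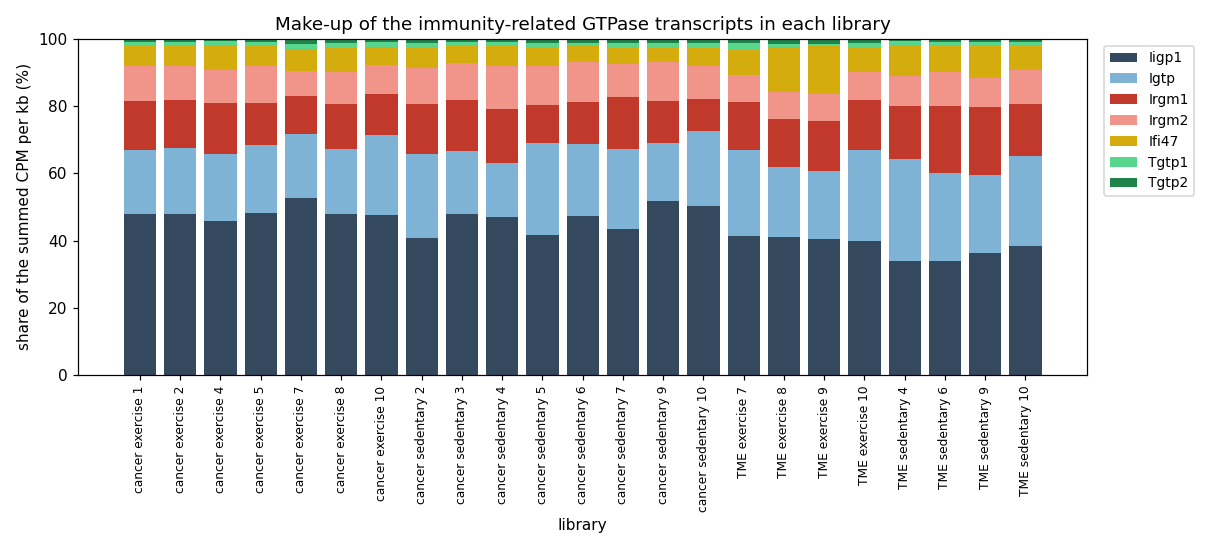
Share of each member in the summed CPM per kb of the 7 members (y axis, percent) for each library (x axis). The dark bars of Iigp1 reach 40.8% to 52.6% in cancer libraries and 33.9% to 41.3% in TME libraries, while Ifi47 is widest in exercised TME libraries 8 and 9.

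Some libraries stood above or below their group for most members, and others did so for single members. As deviations of log2 CPM from the group mean, averaged over the 7 members, sedentary cancer library 10 stood at 1.09, exercised cancer library 7 at 0.59 and sedentary cancer library 5 at 0.34. Sedentary cancer libraries 2, 3 and 4 stood at -0.41, -0.44 and -0.44, exercised TME library 10 at -0.37 and sedentary TME library 6 at -0.36. Members also moved apart: in exercised TME library 7 Tgtp1 stood at 0.76 and Ifi47 at -0.45, and in exercised TME library 9 Tgtp1 stood at -0.36 and Ifi47 at 0.63. Across the 23 libraries, which share depth and cell make-up among genes, Pearson's r between members ran from 0.55 (Tgtp1 with Ifi47) to 0.92 (Irgm2 with Iigp1). Igtp and Irgm2, whose exons overlap and whose promoter stretches differ at 2 of 80 bases, had r = 0.79, while Irgm2 and Iigp1, on different chromosomes, had the highest value. Without sedentary cancer library 10 the values ran from 0.34 to 0.89.

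**Figure D5:**
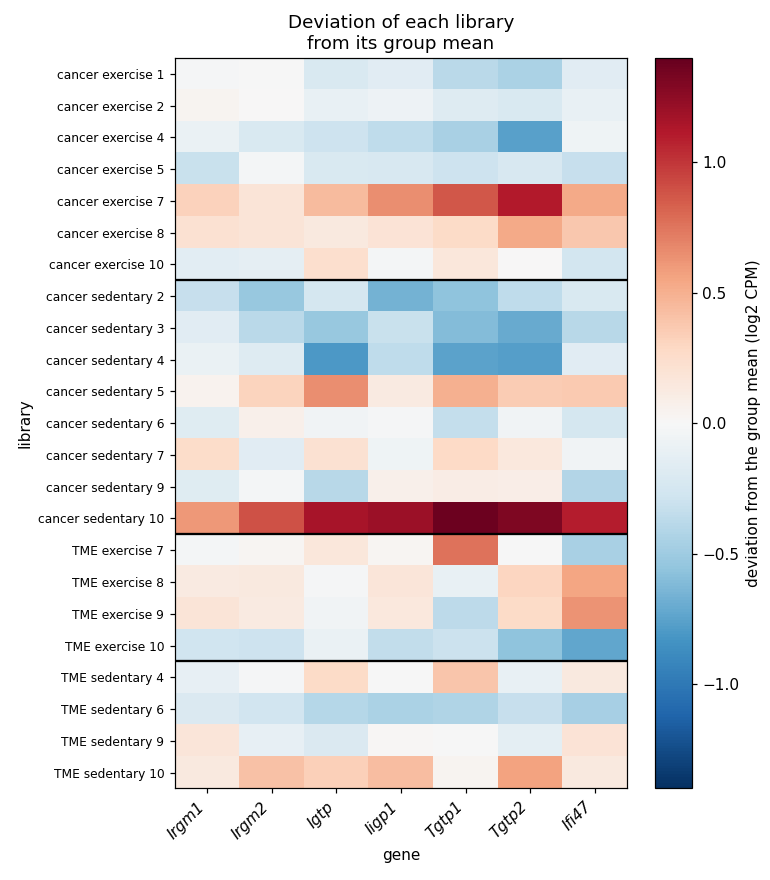
Deviation of log2 CPM from the group mean (colour, red above and blue below) for each member (x axis) in each library (y axis). Sedentary cancer library 10 is red for all 7 members, with values from 0.60 (Irgm1) to 1.37 (Tgtp1).

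Among the genes outside the members that followed their mean deviation most closely, of 11921 ranked genes with predicted ones passed over, were Psmb9 (r = 0.89), Gbp3 (0.89), Gbp4 (0.86), Tap1 (0.86) and Tapbpl (0.85). Psmb9 is a subunit of the immunoproteasome and Tap1 a subunit of the peptide transporter of antigen presentation. Gbp3 and Gbp4 are guanylate-binding proteins, larger GTPases also induced by interferon, and Tapbpl edits the peptides loaded on MHC class I. Without sedentary cancer library 10 the values were 0.73 to 0.84. These are descriptions over 23 libraries.

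Genes that neighbour the members in function were followed as lists. Of 10 other genes of the family, 9 were tested in TME cells, where 8 were above 0 under exercise (median 1.02 log2) and 6 had an unadjusted p under 0.05, with 0 called, against 4.93% of all genes. F830016B08Rik had 19.4 ± 3.13 CPM in exercised and 9.15 ± 3.78 in sedentary TME cells (1.08 ± 0.30, adjusted p = 0.586), and Gm4951 had 14.6 ± 8.10 and 5.25 ± 1.47 CPM (1.45 ± 0.39, adjusted p = 0.586). In cancer cells 7 of 8 tested were above 0 (median 0.24), with 4 at an unadjusted p under 0.05, against 5.92% of all genes, among them 9930111J21Rik2 (0.997 ± 0.27, adjusted p = 0.155). Between cancer and TME cells 1 of 9 was higher (27.3% of all genes), F830016B08Rik (0.92 ± 0.27, adjusted p = 0.00734), and 3 were lower (25.3%). The lower ones were Gm5431 (-2.62 ± 0.47), 9930111J21Rik2 (-1.06 ± 0.21) and Gm12250 (-0.82 ± 0.25), listed in RefSeq as Irgb10.

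A list of other interferon-induced GTPases, the guanylate-binding proteins, the Mx proteins and Gvin1, gave a like picture. In TME cells 13 of 13 tested were above 0 (median 0.74 log2) and 10 had an unadjusted p under 0.05, with 0 called, against 51.3% of all genes above 0 and 4.93% higher at that threshold. Gbp5 had 60.2 ± 13.9 CPM in exercised and 31.0 ± 5.87 in sedentary TME cells (0.94 ± 0.18, adjusted p = 0.586), and Gbp4 had 140.356 ± 15.9 and 82.8 ± 14.7 CPM (0.74 ± 0.15, adjusted p = 0.586). In cancer cells 10 of 13 were above 0 with a median of 0.16. Between the sorts 3 were higher in cancer cells (27.3% of all genes), among them Gbp10 (0.74 ± 0.15), and 5 were lower (25.3%), among them Mx1 (-2.34 ± 0.29) and Gbp2b (-1.69 ± 0.21).

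The medians of upstream genes lay closer to 0. Of 13 genes of interferon-gamma signalling 12 were above 0 in exercised TME cells (median 0.26 log2), and 5 of 12 tested in exercised cancer cells (median -0.03). In TME cells 2 of the 13 were higher at an unadjusted p under 0.05, against 4.93% of all genes, with 0 called. Irf1, a factor that binds the ISRE, had 168.497 ± 34.6 CPM in exercised and 165.975 ± 40.3 in sedentary TME cells (0.01 ± 0.20, adjusted p = 0.994). Between the sorts 2 of these genes were higher in cancer cells and 9 were lower (27.3% and 25.3% of all genes), among them Irf8 (-2.38 ± 0.24), the receptor gene Ifngr2 (-0.46 ± 0.08) and Irf1 (-0.78 ± 0.14). Type I interferon signalling had medians of 0.28 in TME and -0.15 in cancer cells, with 0 of 8 called in either. In cancer against TME cells 0 of its 8 genes were higher and 5 were lower (27.3% and 25.3% of all genes). At an unadjusted p under 0.05, 2 of its 8 genes were higher in exercised TME cells (4.93% of all genes). In exercised cancer cells 1 of 8 was lower (6.67%).

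Of 12 genes of interferon-gamma-induced antigen presentation, 10 were above 0 in TME cells under exercise (median 0.44 log2), led by Nlrc5, which switches on MHC class I genes (0.77 ± 0.14, adjusted p = 0.586), and 7 in cancer cells (median 0.07). Between the sorts 10 of the 12 were lower in cancer cells and 0 higher, against 25.3% of all genes lower and 27.3% higher, with Cxcl9 at -3.35 ± 0.21, while Nlrc5 stood at -0.09 ± 0.13 and missed the threshold. The 10 genes of LC3 and GABARAP conjugation had medians of -0.04 in TME and -0.09 in cancer cells under exercise, with 0 called. Between the sorts 1 of these 10 was higher in cancer cells (27.3% of all genes), Atg12 (0.30 ± 0.09). Another 4 were lower (25.3%), among them Gabarap (-0.62 ± 0.08). The lists share their libraries with the members, so their values are given side by side and are not independent of them.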

How the data were processed

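The authors deposited raw counts of 48397 symbols in 23 columns, all of which were used. The submitters' processing notes name STAR, featureCounts and mm10. Tool versions, like the strand and multi-mapping settings, are not stated by the sources used here. These counts were tested with edgeR 4.0.16 (R 4.3.3): filterByExpr, TMM scaling and the robust quasi-likelihood test, two-sided, with Benjamini-Hochberg adjustment over all genes tested and a threshold of 0.05. This is the source of each adjusted p with no tool beside it. Exercise was tested on 15 cancer and, separately, on 8 TME libraries, and the contrast between the sorts and the difference of the effects on all 23. Library totals of 15924340 to 37388479 set the counting precision. Levels are means ± SD of TMM-scaled CPM, fold changes are log2 ± SE, and correlations use a prior count of 2. Exonic lengths come from GENCODE M21 and promoters from RefSeq (GRCm38.p6). The test was checked on simulated data.

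The members, gene lists and tests were chosen with earlier results of these data known. All 7 members are named in every comparison, from each list up to 4 genes with the smallest p, always Ifng, Irf1 and Nlrc5, and the 6 genes most like the members among genes of mean log2 CPM 1 or more; 1 gene that this rule names is not reported here. The outermost values by fold between the sorts were also named after they were seen. Alternatives were DESeq2 1.42.0, limma 3.58.1 voom with quality weights, RLE factors, no low-count filter, a filter at a mean CPM of 1, no mitochondrial genes, the Tgtp pair summed, a replicate block, a leukocyte covariate, 1 fit of all libraries, and each library left out.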

Additional observations from a re-analysis of the deposited data

Results flagged for a closer look

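Of 28 combinations of a member and a group, 7 held a library farther from the rest than Dixon's test allows at the 95% level, a test that chance alone passes in about 5% of groups. Sedentary cancer library 10 accounts for 5 of them, and since they come from the same library these are not independent. It had 1053.79 CPM of Iigp1 against 501.546 in the next library, 130.057 CPM of Irgm2 against 86.8, 16.2 CPM of Tgtp1 against 8.85, 14.3 CPM of Tgtp2 against 7.37 and 48.3 CPM of Ifi47 against 28.9. Exercised TME library 7 had 13.7 CPM of Tgtp1 against 7.53 in the next. Sedentary TME library 6 had the lowest Ifi47 of its group, 22.3 CPM against 33.8 in the next. No cause was tested.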

How the results depend on the processing

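Exercise called 0 members in cancer cells under all 25 alternatives, and 0 in TME cells under all 19 except DESeq2, which called 1 (Tgtp2). All 7 members stayed above 0 in TME cells under each alternative. The difference of the effects called 0 members under all 32. Between the sorts 2 members were called, Irgm2 higher and Ifi47 lower. With RLE factors, a filter at a mean CPM of 1 or voom 2 were called too, but these were Ifi47 and Irgm1, both lower. The count was 1 without a filter, without mitochondrial genes or within exercised libraries. It was 0 within sedentary libraries or without exercised TME libraries 8 and 9, and leaving out 1 library gave 1 to 3. The cause was not tested.

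Near 0, directions turned. Under exercise in cancer cells Irgm2 turned to 0.0099 without a filter, 0.11 with voom and 0.021 in 1 fit of all libraries, with -0.088 to 0.15 over single libraries left out. Tgtp2 turned to -0.010 with voom, -0.064 with the replicate block and -0.077 with the leukocyte covariate (-0.19 to 0.35 without single libraries), and Igtp to -0.089 with the covariate (-0.025 to 0.29). Between the sorts Tgtp2 turned to -0.17 with voom and -0.36 within exercised libraries. In the difference of the effects Irgm1 turned to -0.021 with RLE factors and with DESeq2, -0.046 without a filter, -0.036 with a filter at a mean CPM of 1, -0.038 without mitochondrial genes and -0.066 with voom (-0.11 to 0.11 without single libraries). Ifi47 turned to 0.22 without exercised TME libraries 8 and 9, and Tgtp1 spanned -0.46 to 0.026 without single libraries. With the number within a treatment as a replicate block Ifi47 turned to 0.042, Igtp to 0.12 and Tgtp1 to 0.071.

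Over all genes, exercise in cancer cells called 0, but 28 without a filter, 161 with DESeq2, 197 with voom, 1 in 1 fit of all libraries and up to 43 without single libraries (sedentary cancer library 4). In TME cells 6 were called without a filter and 41 with DESeq2. The difference called 2 with DESeq2, 40 with voom, 14 with the replicate block and 52 without exercised TME library 7.

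Replicate numbers were not taken to pair the libraries: same-numbered deviations correlated at -0.07 to 0.09 in cancer cells (5 pairs) and 0.01 to 0.23 in TME cells (2 pairs), and between the sorts at 0.14 to 0.24 in exercised (3 pairs) and -0.06 to 0.05 in sedentary mice (4 pairs). With the replicate block the exercise estimates rest on those 5 pairs in cancer and 2 pairs in TME cells. The median of the members was then 0.13 in cancer and 0.21 in TME cells, with 0 called. In TME cells 0 members had an unadjusted p under 0.05. Between the sorts 2 were called with the block, Irgm2 (0.45) and Iigp1 (0.65), while Ifi47 was not (-0.36, adjusted p = 0.130).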
